A study of Mus musculus with 4 samples.

Results

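The DNA repair set holds the genes whose names on the array begin with the symbols of the Rad, Xrcc, Msh, Mlh, Ercc, Fanc, Brca and Neil families that a fixed pattern lists, together with Ogg1, Ung, Apex1, Mre11a, Nbn, Atm and Parp1. The pattern used names only and no measured value. It matched 118 of 43379 spots that are not controls, which belong to 109 probes and 58 of the 21200 named genes of the array. Of the 8 names searched for exactly, 1 matched no spot (Atr, a damage-signalling kinase), and it was not analysed here. By role, 8 genes act in base excision repair, 9 in nucleotide excision repair, 5 in mismatch repair and 24 in recombination and crosslink repair. A further 9 act in end joining, damage signalling or lesion bypass, and 3 match the pattern by name and were placed in no pathway here.

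The treated samples were 4 pools of 50 mouse oocytes each that had been held at a hydrostatic pressure of 20 MPa for 60 min at 37 °C. The control samples were 4 pools of 50 oocytes each that had gone through the same handling without the pressure. Strain, age, oocyte stage and the time between pressure and lysis are not given in the sources used here. Each of 4 Agilent arrays took 1 treated pool, labelled with Cy5 (red), and 1 control pool, labelled with Cy3 (green), both amplified from 240 pg of total RNA in 2 rounds. The dyes were not exchanged on any array, so dye and treatment cannot be told apart.

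DNA repair is divided among pathways by the kind of lesion. In base excision repair a glycosylase removes one damaged base and the gap is refilled, in nucleotide excision repair a stretch of strand around a bulky lesion is cut out, and mismatch repair removes bases that the polymerase paired wrongly. Recombination repairs breaks from an intact copy, and the Fanconi anaemia proteins act with it where strands are crosslinked. An oocyte carries stored maternal mRNAs of these pathways, and the fully grown oocyte transcribes little until the embryonic genome is activated.

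Results rest on probes of 60 bases. For the members whose values carry most of what follows, bases 31 to 60 of the deposited probe are given, 5′ to 3′. The first is the member with the smallest p, the next is the glycosylase gene with the smallest p, the Msh probes are of mismatch repair genes and Rad18 is a gene of lesion bypass.
Ercc8, chr13:105323729-105323788, plus strand: aaaatgagatcgatgtgtatgataccctga
Ung, chr5:113361050-113361109, plus strand: atcttcactgagtttacaagctggattccg
Msh6, chr17:86293245-86293304, plus strand: gaaaaaggtggtaaattcagacaacattat
Msh3, chr13:89317416-89317475, minus strand: catttcataccaaagcgggttcttctaagt
Rad18, chr6:112787350-112787409, minus strand: tgagacttttaaAATAAAtgcaatggttta
Positions are those of the whole probe in the array files, in mouse build mm7. Capitals in the Rad18 probe mark AATAAA, the commoner poly(A) signal, which directs cleavage of a transcript near its end. The AATAAA or ATTAAA letters, searched on the given strand only, stood in 3 of the 25 member probes that passed the filter on dim probes (12%) and in 2 of the 84 that did not (2.38%). Over all probes they stood in 10% of those that passed and in 6.87% of those that did not. Exon, intron or UTR place is not given in the sources used here for these probes.

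A probe was kept where it lay well above background on at least 3 of the 4 arrays in the same channel. At least 1 probe was kept for 21 of the 58 genes (36.2%), against 30.1% of all named genes, and 25 of the 109 member probes were kept (22.9%), against 19.7% of all probes. In treated samples 31, 22, 22 and 23 member probes were above background on replicates 1 to 4, against 28, 29, 29 and 30 in control samples. Replicate 1 thus had more detected member probes in the treated channel, and the other 3 arrays had more in the control channel. All spots of the arrays behaved the same way, with 11155, 7192, 7049 and 8146 above background in treated samples and 8309, 9505, 10102 and 10837 in control samples. Of the 21 genes, 13 were above background on all arrays in both channels. The other 8 were detected on more arrays in the control channel and 0 on more in the treated channel; over all genes tested, 2185 were detected on more arrays in the control channel and 439 on more in the treated one. The part of this imbalance in the ratios of dim members was not tested.

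**Figure D1:**
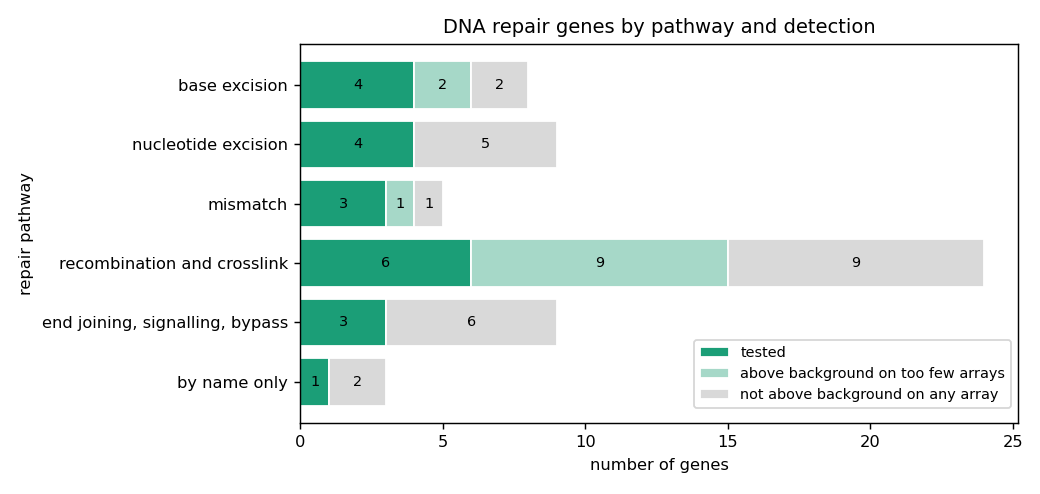
Number of DNA repair genes of each pathway (horizontal axis, genes) that were tested, that were above background on too few arrays, or that were not above background on any array. In mismatch repair 3 of 5 genes were tested, and 6 of the 24 recombination and crosslink genes were tested.

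The counts of measured genes by pathway, given here without a test of their difference, stand beside the 30.1% of all named genes. In base excision repair 4 of 8 genes were tested: Ung and Ogg1, which remove uracil and oxidised guanine, and Neil1 and Neil3, which remove other oxidised bases. Xrcc1, the scaffold of the later steps, was above background on at most 2 arrays in a channel and Apex1, the abasic-site endonuclease, on 1. Neil2 and Parp1, the strand-break sensor, were not above background on any array. In nucleotide excision repair 4 of 9 were tested: Ercc4, a nuclease subunit; Ercc6 and Ercc8, which act where a stalled RNA polymerase marks the lesion; and Rad23b, a partner of the lesion sensor Xpc. The remaining 5 were not above background on any array, and they include Ercc1, the partner of Ercc4, the helicases Ercc2 and Ercc3 of the transcription factor TFIIH and the nuclease Ercc5.

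In mismatch repair 3 of 5 genes were tested, among them Msh3 and Msh6, which are subunits of the complexes that recognise mispaired bases. Mlh3, which acts after recognition, was not above background on any array. In recombination and crosslink repair 6 of 24 were tested, among them Brca1, Nbn, a member of the break-sensing complex with Rad50 and Mre11a, and the Fanconi anaemia genes Fancb, Fance and Fancg. Above background on at most 2 arrays in a channel were Brca2, which acts in the strand exchange step, Fanca, the ubiquitin ligase Fancl, the meiotic gene Msh4 and Rad51l3 (now Rad51d). On at most 1 array in a channel for any probe were Fancm, Mre11a, Rad51c and Xrcc2. The probes of the other 9 (Fancc, Fancd2, Msh5, Rad50, Rad51ap1, Rad51l1 (now Rad51b), Rad52, Rad54l and Xrcc3) were not above background on any array.

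Among the genes of end joining, signalling and bypass 3 of 9 were tested: Xrcc4, the partner of the end-joining ligase, Rad17, the loader of the checkpoint clamp, and Rad18, a ubiquitin ligase that starts lesion bypass. The kinase Atm, the clamp genes Rad1, Rad9 (now Rad9a) and Rad9b, and Xrcc5 and Xrcc6, the break-binding Ku subunits, were not above background on any array. Of the 3 genes matched by name and placed in no pathway, Xrcc6bp1 (now Atp23, a mitochondrial protease gene in yeast) was tested. Ercc6l and Rad54l2 were not above background on any array. These are statements about single probes on amplified RNA, and a probe not well above background gives a bound and not an absence.

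Where a member had both kept and dim probes placed on one strand, the one nearest the end of the transcript was usually kept. For 13 members that had both kept and dim probes on one strand, the last probe along the transcript was kept in 11 (84.6%) and the first in 1 (7.69%). Over the 3151 named genes with both kinds of probe, the last was kept in 70.9% and the first in 20.9%. Neil3 had one probe above background on all 4 arrays in both channels, and its probes 13798 and 19978 bases upstream in the genome, introns included, were above background on none. Neil1 and Xrcc4 were the exceptions, with a kept probe 72 and 74352 bases upstream of the dim last one. For Neil3 the probe stretches read as follows, the detected probe first.
Neil3, detected, chr8:52356044-52356103, minus strand: ttttctctttttaaagaatgcccgtctcat
Neil3, dim, chr8:52369842-52369901, minus strand: attttattttgagttcatagaatttgtaag
Neil3, dim, chr8:52376022-52376081, minus strand: agttgaataacagttgtgttggtattttgc
The distance of the probes of the 37 untested members from the transcript end was not tested.

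**Figure D2:**
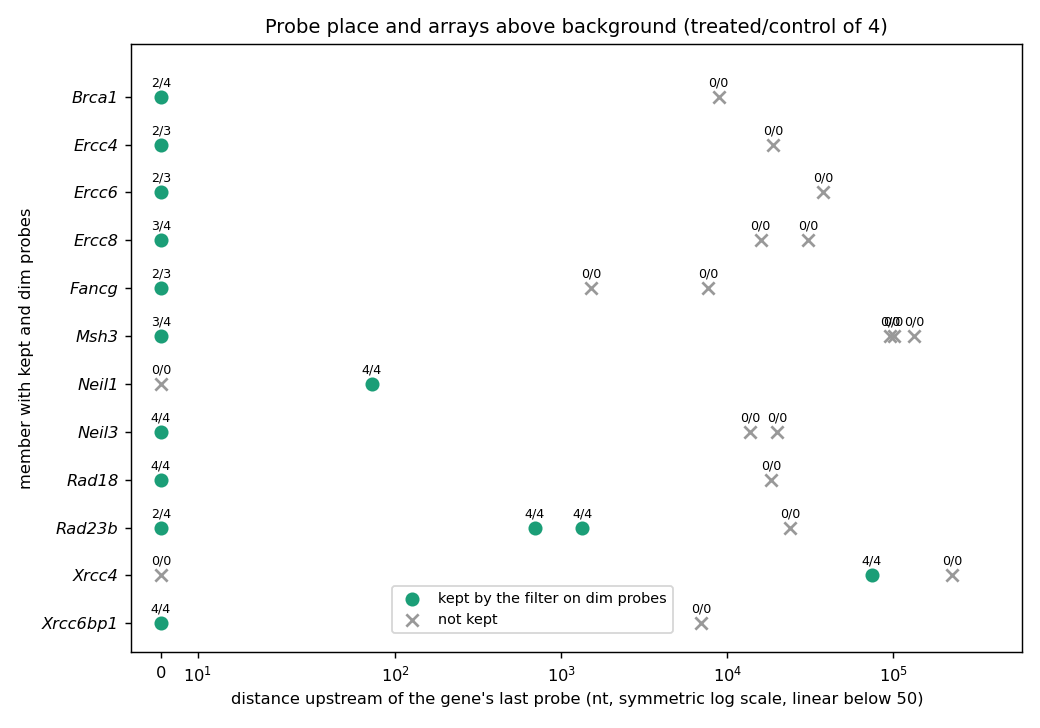
Probes of 12 members with both kept and dim probes, one line of points per gene; the horizontal axis is the genomic distance upstream of the gene's last probe in nt (symmetric log scale, linear below 50). Green circles passed the filter on dim probes and grey crosses did not; the pair of numbers at each point gives the arrays above background, of 4, in the treated and in the control channel. In 10 of these 12 genes the probe at 0 was kept.

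None of the 21 tested DNA repair genes passed the test of treated over control. At an adjusted p of 0.05 (limma, Benjamini-Hochberg over 6917 genes) 0 members were higher and 0 lower, and the same test called 0.0% of all genes in each direction; the lowest adjusted p of a member was 0.929. At an unadjusted p under 0.05 there was 1 member, Ercc8, which was lower, against 4.19% of all genes in either direction and 3.46% lower. The mean log2 ratio was above 0 for 9 members and below 0 for 12, against 52.5% of all genes below 0. The median over members was -0.03 and that over all genes -0.02. On the single arrays the median over members was 0.15, -0.01, 0.07 and -0.46 on replicates 1 to 4, a spread wider than its distance from 0. With 4 arrays the precision is limited by their number.

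By pathway, the median log2 ratio was 0.03 over the 4 base excision genes, -0.09 over the 4 nucleotide excision genes, -0.15 over the 6 recombination and crosslink genes and -0.07 over the 3 genes of end joining, signalling and bypass. In base excision repair the array medians were -0.00, 0.20, 0.21 and 0.31. For nucleotide excision repair they were -0.62, 0.16, -0.38 and 0.39, and for recombination and crosslink repair 0.16, -0.03, 0.08 and -0.64. Leaving out 1 array in turn moved the nucleotide excision median between -0.24 and 0.09, the recombination and crosslink median between -0.30 and -0.02 and that of end joining, signalling and bypass between -0.23 and 0.10, so single arrays decided the sign of the first and last of these. With processed signals the nucleotide excision median was -0.39 and the recombination and crosslink median -0.44. No test was made of these medians.

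**Figure D3:**
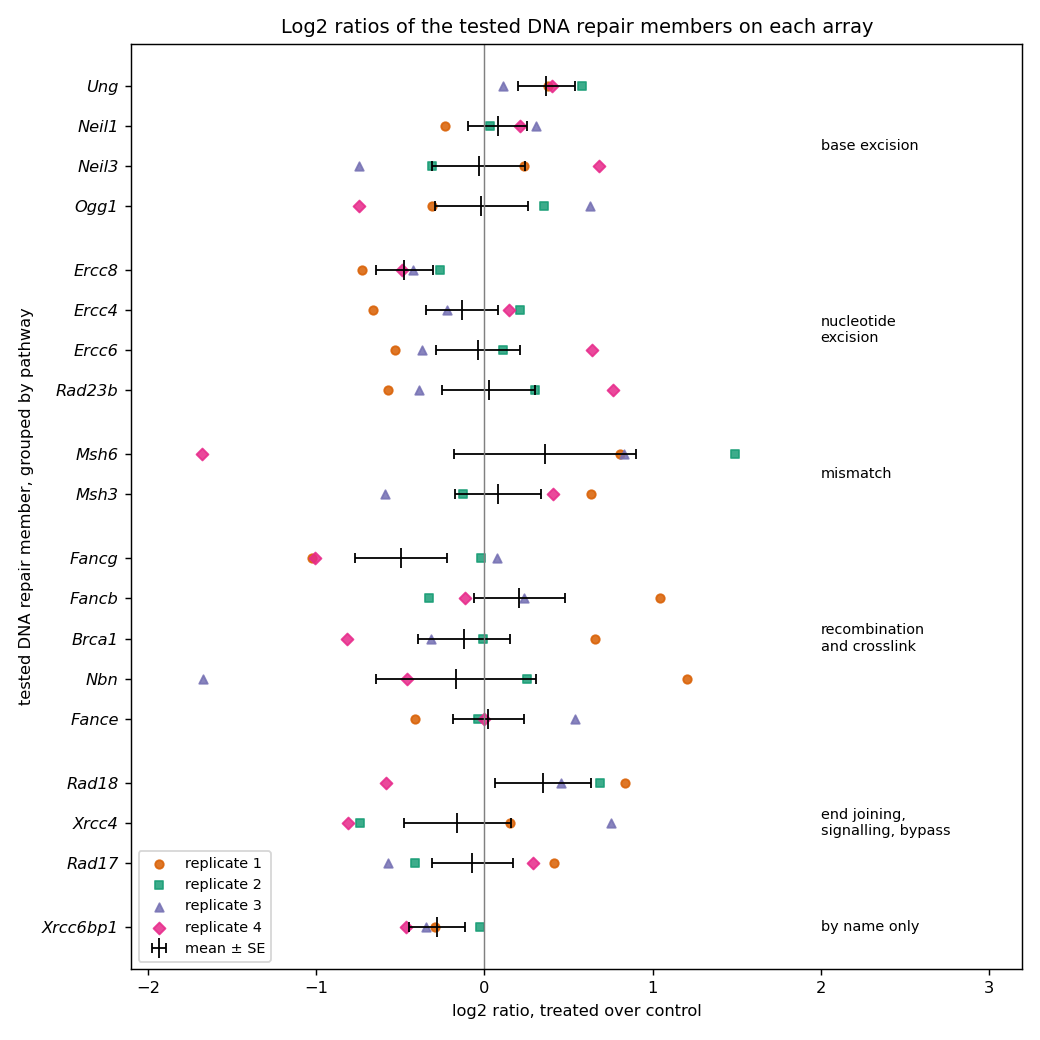
Log2 ratio of treated over control (horizontal axis) for 19 tested DNA repair genes, grouped by pathway; points are the 4 arrays and bars the mean ± SE. Ercc8 and Xrcc6bp1 lie below 0 on every array and Ung above 0 on every array, and all other members drawn have arrays on both sides.

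Base excision repair held the 1 member that was above 0 on all 4 arrays, against 2.94% of all genes. Ung had normalised intensities of 3922, 4241, 932.8 and 3199 in treated samples, against 3015, 2834, 865.3 and 2424 in control samples on replicates 1 to 4. Normalised intensity here is the linear signal of a channel after background correction, loess and quantile adjustment of the arrays' average intensities. It is set side by side only within a probe. Each treated pool lay above its own control, while the range of the treated pools overlapped that of the control pools. The log2 ratio was 0.37 ± 0.17 (SE, n = 4; unadjusted p = 0.0787, adjusted p = 0.929 in the limma fit over all genes), and it was -0.29 when arrays were centred on their median in place of loess. Neil1 had 76.3, 90.2, 97.0 and 91.8 in treated samples, against 90.0, 88.0, 78.5 and 79.4 in control samples. Its groups overlapped, replicate 1 lay opposite to the others, and the log2 ratio was 0.08 ± 0.18 (SE, n = 4; unadjusted p = 0.677, limma).

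Neil3 and Ogg1 varied between arrays without a shared direction. Neil3 had 7059, 2887, 1110.5 and 7795 in treated samples, against 5994, 3581, 1859 and 4865 in control samples. Its treated pool was the higher one on replicates 1 and 4 and the lower one on replicates 2 and 3, with a mean log2 ratio of -0.03 ± 0.28 (SE, n = 4). Ogg1 had log2 ratios of -0.31, 0.36, 0.63 and -0.74, and a second, overlapping probe gave -0.06, 0.19, 0.61 and -0.56. The 2 Ogg1 probes thus ranked the arrays alike, with means of -0.02 and 0.04.

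In nucleotide excision repair Ercc8, the gene of the Cockayne syndrome A protein, was lower in the treated pool on every array. It was 1 of 2 members below 0 on all 4 arrays, the other being Xrcc6bp1, against 9.35% of all genes. Ercc8 had 309.8, 181.1, 103.3 and 144.1 in treated samples, against 512.8, 217.3, 138.5 and 202.6 in control samples. The groups overlapped, with both channels highest on replicate 1 and lowest on replicate 3, and the log2 ratios were -0.73, -0.26, -0.42 and -0.49. The mean was -0.48 ± 0.17 (SE, n = 4; unadjusted p = 0.0343, adjusted p = 0.929 in the limma fit). The probe was above background on 3 treated and 4 control arrays. Without replicate 1 the mean was -0.39, and over the replicates left out in turn it lay between -0.55 and -0.39, with the unadjusted p above 0.05 each time. With the sign of replicate 1 turned, since its ratios ran against those of the other arrays, Ercc8 was above 0 on that array and its mean was -0.11 (unadjusted p = 0.669, limma). With processed signals the mean was -1.30.

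Ercc4 was one of the members just inside the filter, above background on 2 treated and 3 control arrays. It had 167.0, 128.2, 75.3 and 80.1 in treated samples, against 264.5, 110.9, 87.8 and 72.4 in control samples. The groups overlapped and the arrays went both ways, with a log2 ratio of -0.13 ± 0.21 (SE, n = 4; unadjusted p = 0.561, limma). Ercc6, whose protein works beside that of Ercc8, had log2 ratios of -0.53, 0.11, -0.37 and 0.64, with a mean of -0.04 ± 0.25. Its probe was also just inside the filter, above background on 2 treated and 3 control arrays. Ercc6 thus lay above 0 on 2 of the 4 arrays on which Ercc8 lay below 0, and the difference between these genes was not tested.

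Rad23b was measured by 3 kept probes that disagreed. The brightest gave log2 ratios of -0.58, 0.30, -0.39 and 0.77, with a mean of 0.03, and a probe further downstream gave 0.00, -0.04, 0.01 and 0.58. The last probe of the gene gave -0.96, -0.33, -0.40 and -0.50, with a mean of -0.55, and was lower in the treated pool on every array. That probe was above background on 2 treated and 4 control arrays, and the others on all 4 in both channels. Which of them reports the gene was not tested, and the stretches of the brightest and of the last probe are printed here because their means differ.
Rad23b, brightest, chr4:55404489-55404544, plus strand: ggaagattggtaggggtctaattactgttc
Rad23b, last, chr4:55405822-55405881, plus strand: gcatctttagtatttttattgttttgctgc

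Mismatch repair held the member with the widest spread between arrays. Msh6, a subunit that recognises mispaired bases, had 3107, 1401, 14496 and 2519 in treated samples, against 1778, 498.8, 8147 and 8079.9 in control samples. The treated pool was higher on replicates 1 to 3, at log2 ratios of 0.81, 1.49 and 0.83, and lower on replicate 4 at -1.68. The mean was 0.36 ± 0.54 (SE, n = 4; unadjusted p = 0.530, limma). The SD over arrays was 1.40, larger than that of 95.2% of the genes tested. Without replicate 4 the mean was 1.04, and without replicate 2 it was -0.01, so single arrays decided both its size and its sign.

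Msh3 had 154.1, 95.1, 123.8 and 194.5 in treated samples, against 99.1, 103.9, 186.3 and 146.9 in control samples. Its log2 ratios of 0.64, -0.13, -0.59 and 0.41 had the sign of Msh6 on replicate 1 only, and the mean was 0.08 ± 0.26 (SE, n = 4). The pattern of higher treated pools on replicates 1 to 3 and a lower one on replicate 4 was shared by Msh6 and Rad18, and was seen in 4.98% of all genes. It was noticed after the values were seen.

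**Figure D4:**
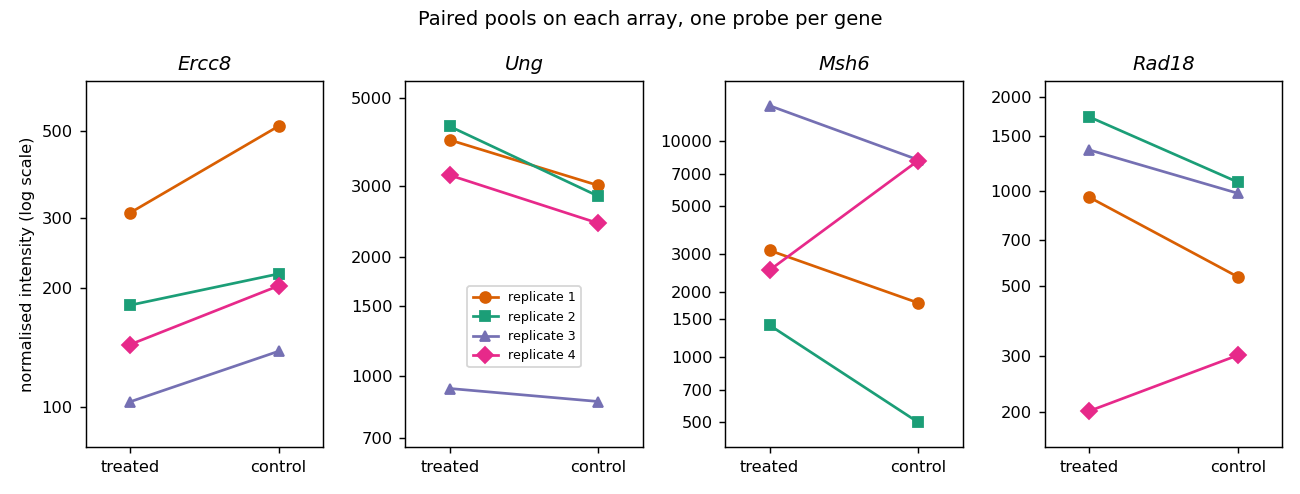
Normalised intensity (vertical axis, arbitrary linear units drawn on a log scale) of Ercc8, Ung, Msh6 and Rad18 in the treated pool (left) and in the control pool (right), with a line joining the pools of one array. The Ercc8 lines all run upward to the control pool, the Ung lines all run downward, and the Msh6 and Rad18 lines of replicate 4 run against the other 3.

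In recombination and crosslink repair the member with the lowest mean did not pass the test. Fancg, a subunit of the Fanconi anaemia core complex, had 98.1, 79.0, 86.6 and 110.5 in treated samples, against 199.6, 80.3, 82.3 and 222.4 in control samples. The treated pools were about one log2 unit lower on replicates 1 and 4, at -1.02 and -1.01, and close to the control on replicates 2 and 3, at -0.02 and 0.07, where both channels were near the dim end. The mean was -0.50 ± 0.27 (SE, n = 4; unadjusted p = 0.122, limma), with the probe above background on 2 treated and 3 control arrays. Without replicate 1 it was -0.32, with array weights -0.18 and with the sign of replicate 1 turned 0.02. With processed signals, whose ratios the deposited value table holds, it was -1.49 (unadjusted p = 0.0282, limma).

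Nbn had log2 ratios of 1.20, 0.25, -1.67 and -0.46 and the second widest spread of the members, with an SD of 1.21, larger than that of 92.0% of genes. Its mean was -0.17 ± 0.47 (SE, n = 4).

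Brca1, which acts early in recombination, had log2 ratios of 0.66, -0.01, -0.32 and -0.82 and was above background on 2 treated and 4 control arrays. Its mean was -0.12 ± 0.28 (SE, n = 4). Fancb had 1.04, -0.33, 0.23 and -0.12 with a mean of 0.21, and Fance had -0.41, -0.04, 0.54 and -0.00 with a mean of 0.02. All of these had arrays on both sides of 0.

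Brca2 and Xrcc1 stood just outside the filter, above background on 2 arrays in each channel. Brca2 had 150.0, 74.8, 2293 and 91.1 in treated samples, against 74.9, 75.6, 2866 and 463.6 in control samples. It was bright in both pools of replicate 3, in the treated pool alone on replicate 1 and in the control pool alone on replicate 4, at log2 ratios of -0.32, 1.0 and -2.35. Xrcc1 had 87.4, 77.5, 123.5 and 84.5 in treated samples, against 83.8, 77.2, 91.0 and 102.7 in control samples. Fancl had 1 probe that was above background in the control pool of replicate 1 only, at 321.4 against 49.9 in the treated pool of that array, and in no treated pool. For that probe the mean control signal over arrays was 1.55-fold the treated one, a value that this single control pool carries. The other control pools were dim on that probe, so the value is no lower limit on the change. The other Fancl probe has no such value. It was above background in the treated pool of replicate 3, at 119.8 against 68.0 in its control pool, and in the control pools of replicates 1 and 2, at 59.8 and 82.5 in the treated pools against 225.4 and 85.7 in the control pools. Values of the same kind, again with 1 control array above background, were 1.24-fold for Fancm, 1.03-fold for Rad51c and 0.98-fold for Apex1. None of these genes was tested.

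Among end joining, signalling and bypass, Rad18 had 957.9, 1723, 1354 and 201.2 in treated samples, against 535.7, 1070.1, 986.4 and 302.3 in control samples. The treated pool was higher on replicates 1 to 3, at 0.84, 0.69 and 0.46, and lower on replicate 4, at -0.59. The mean was 0.35 ± 0.28 (SE, n = 4; unadjusted p = 0.269, limma), and 0.66 without replicate 4. Xrcc4 had 230.6, 224.4, 163.4 and 161.1 in treated samples, against 207.5, 374.0, 97.1 and 283.2 in control samples. Its arrays went both ways, with a mean of -0.16 ± 0.32 (SE, n = 4; unadjusted p = 0.630, limma). Rad17 gave log2 ratios of 0.41, -0.41, -0.57 and 0.29 on its brightest probe, with a mean of -0.07, and 0.07, -0.70, 0.07 and 0.41 on a second.

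Xrcc6bp1, matched by name only, had the smallest SD over arrays of the 21 tested members. Its intensities were low, and the offset draws ratios near background towards 0. The part of this in its SD was not tested. It had 125.2, 127.2, 115.4 and 120.4 in treated samples, against 153.2, 129.6, 146.8 and 166.0 in control samples. The highest treated pool lay below the lowest control pool, and the share of all genes separated in this way was not counted. The log2 ratios were -0.29, -0.03, -0.35 and -0.46. The mean was -0.28 ± 0.17 (SE, n = 4; unadjusted p = 0.150, adjusted p = 0.929 in the limma fit). The SDs over arrays of Xrcc6bp1, Ercc8 and Ung were 0.185, 0.193 and 0.195, against a median of 0.523 over all genes, and 8 of the 21 members had a smaller SD than that median.

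A further list of 109 DNA repair genes that the name pattern does not match was read from the same fit. Of these 108 had a spot and 61 were tested. None passed the test in either direction (0 higher and 0 lower after adjustment over all genes; 1 at an unadjusted p under 0.05), and the median log2 ratio was -0.04, with 26 above and 35 below 0. By pathway the tested genes numbered 7 of 18 in base excision repair, 6 of 18 in nucleotide excision repair, 10 of 13 in mismatch repair and its synthesis step, 18 of 27 in recombination and crosslink repair, and 20 of 33 in end joining, signalling and bypass. Their medians were 0.00, 0.16, 0.05, -0.19 and -0.15 in that order. No test was made of these medians, and the nucleotide excision median had the opposite sign to that of the pattern-matched set.

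Rfc5, a subunit of the loader of the replication clamp, was the gene with an unadjusted p under 0.05. It had 168.4, 196.0, 111.5 and 115.2 in treated samples, against 271.0, 217.6, 205.3 and 274.4 in control samples. Every treated pool was lower than every control pool, and here too the share of all genes separated in this way was not counted. The log2 ratio was -0.74 ± 0.23 (SE, n = 4; unadjusted p = 0.0202, adjusted p = 0.929 in the limma fit). The other genes with the smallest p of their lists had unadjusted p between 0.0840 and 0.490. Higher in their means were Palb2 at 0.31, which links Brca1 to Brca2, the glycosylase gene Smug1 at 0.13, Parg at 0.22, whose product removes poly(ADP-ribose), and Pms1 at 0.29, a mismatch repair gene. So were Rpa1 at 0.26, a subunit of the single-strand binding protein, and Gtf2h1 at 0.37, a TFIIH subunit. Lower were Shfm1 (now Sem1, a Brca2 partner) at -0.45, the bypass polymerase gene Rev1 at -0.38 and the fork-protection gene Tipin at -0.64, which went above 0 on replicate 1 and below on the other 3.

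Replicate 1 stood apart from the other arrays. Pearson correlations of log2 ratios across all probes were -0.17, -0.15 and -0.19 between replicate 1 and the other arrays, against 0.29, 0.09 and 0.23 among the others; probes are not independent replicates. Without it 0 members passed the test, and the median over members was -0.07. With its sign turned 0 members and 0 genes overall passed, the lowest adjusted p over all genes was 0.0535, and 930 genes had an unadjusted p under 0.05. The oocyte label was checked against markers: 12 of the 15 oocyte markers on the array were tested and all 12 were above background on every array in both channels, with summed intensities of 76589 to 233190 in treated and 108588 to 151903 in control samples. Nlrp5 was listed among them and was not above background on any array. Of 14 cumulus and granulosa markers 4 were tested, none of them above background on all arrays in both channels, and Amh, Cyp11a1, Foxl2, Fshr, Kitl and Star were not above background on any; the sums were 1069 to 1396 in treated and 1136 to 1362 in control samples. Of 7 blood and immune markers 2 were tested, both above background on all arrays in both channels, and Cd52, Cd68 and Hbb-b1 were not above background on any array, with sums of 1824 to 2910 in treated and 2199 to 4080 in control samples. Of 7 markers of oviduct, endothelium and stroma 2 were tested, 1 of them above background on all arrays in both channels, and Col3a1 and Pecam1 were not above background on any array, with sums of 1066 to 2118 in treated and 883.8 to 1421 in control samples. All these sums include markers not above background, and such probes do not read 0. A dim Neil3 probe, for example, had a mean intensity of 73.5 in treated and 72.4 in control samples. The part of other cells in the members' values was not tested, and in pooled samples fewer contributing cells and less RNA per cell cannot be told apart.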

How the data were processed

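Per the file headers, the deposited intensity values are spot means and local backgrounds for each channel, extracted from the scans by the authors with Agilent Feature Extraction (9.5.1.1 in the submitters' processing notes). The deposited log10 ratio of red over green comes from that software's processed signals, per the file headers, and was used as an alternative together with the deposited value table. From the intensity values, background was corrected by normexp (offset 50) and arrays were normalised by loess, in limma 3.58.1 under R 4.3.3. For the normalised intensities, the average intensities of all arrays were then set to the same quantiles, which left the log2 ratios unchanged. Control and outlier spots were left out and spots of a probe averaged. The filter on dim probes, described with the results, kept 8108 of 41174 probes, and the brightest kept probe stood for its gene (6917 genes). Symbols were updated through a RefSeq table of GRCm38.p6, whose coordinates were not used: 5027 tested genes were found by accession, 817 by symbol, 379 by an older symbol; 161 stayed as in the files and 533 had no symbol.

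The log2 ratio computed from the deposited values, which pairs the 2 pools of an array, was tested against 0 by moderated tests in limma (lmFit, eBayes), and p was adjusted by Benjamini-Hochberg across all tested genes. The limma test alone was tried on simulated log2 ratios of independent arrays. Background correction, normalization, the filter and the choice of probe were not simulated. The members and lists were chosen with earlier results of these data known. Values on every array are given for tested members with 1 sign on all arrays, an unadjusted p under 0.05, a mean of 0.5 or more in size, or one of the 2 smallest p of a pathway, and for Neil3, Msh3, Brca2, Xrcc1 and Fancl, chosen after their values were seen. Other repair genes are named where the unadjusted p is under 0.05 or among the 2 smallest of a list. Some members that these rules name are not reported here. The submitters describe the pools as biological replicates. Alternatives changed the background correction, normalization, filter, probe choice, eBayes settings, array weights, the source of values, the sign of replicate 1 and the arrays left out. The fold values of Fancl, Fancm, Rad51c and Apex1 compare the mean control signal over arrays with the mean treated signal. On each array the treated signal was raised to the lowest detected treated signal of that array where it lay below this.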

Additional observations from a re-analysis of the deposited data

Results flagged for a closer look

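For a single array far from the rest, 35 sets of 4 array values were examined, and chance alone picks about 5% of such sets. They were those of 29 members and other repair genes named, and the medians over all members and by pathway. The medians are not independent of the genes. Smug1 had a log2 ratio of 0.43 on replicate 1, against 0.00 to 0.07 on the other arrays. Gtf2h1 had a log2 ratio of -0.75 on replicate 4, against 0.60 to 0.84 on the other arrays. In both, 1 array lay far from the other 3, and the cause was not tested.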

How the results depend on the processing

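Under all 15 alternatives 0 members, 0 other repair genes and 0 genes in all passed the adjusted threshold in limma. At an unadjusted p under 0.05 the fits gave 134 to 930 genes in all and 0 to 4 members. These fits held 3903 to 27687 genes and 13 to 58 members. The 4 members, of 21, came with array weights, where 829 of 6917 genes were under 0.05. The lowest adjusted p of a member was 0.387, with array weights. Ercc8 kept its sign in all 14 alternatives that gave it a value, with means from -1.30 to -0.11. With median centring the median over members was -0.42 (that over all genes -0.34) and that over base excision genes -0.41; the base excision median was 0.17 with array weights and 0.23 with processed signals and with the deposited value table. Of 424 single-gene values 357 kept their direction. The other 67 follow, and their causes were not tested. Leaving out each replicate gave ranges of -0.38 to 0.11 for Brca1, -0.25 to 0.044 for Ercc4, -0.26 to 0.13 for Ercc6, -0.070 to 0.39 for Fancb, -0.15 to 0.17 for Fance, -0.10 to 0.30 for Msh3, -0.015 to 1.04 for Msh6, -0.63 to 0.33 for Nbn, -0.27 to 0.20 for Neil3, -0.23 to 0.22 for Ogg1, -0.23 to 0.10 for Rad17, -0.22 to 0.23 for Rad23b and -0.47 to 0.055 for Xrcc4. Processed signals and the deposited value table both gave 0.17 for Ogg1, -0.74 for Msh3 and -0.30 for Fance. The table holds the ratios of those signals, so their agreement was fixed in advance. Both are counted among the 15 alternatives and the 424 values. Array weights gave 0.26 for Ogg1, 0.039 for Ercc4, 0.0042 for Ercc6, -0.12 for Msh3 and -0.075 for Fancb. No background subtraction gave 0.012 for Ercc6, -0.024 for Msh3 and -0.033 for Fance. Scaling between arrays gave 0.22 for Ogg1, 0.038 for Ercc4, 0.033 for Ercc6, -0.035 for Msh3, -0.062 for Fancb, 0.026 for Nbn and -0.00084 for Fance. Median centring gave -0.29 for Ung, 0.058 for Ercc4, -0.63 for Rad23b, -0.41 for Msh6, -0.27 for Msh3, -0.080 for Fancb, -0.37 for Fance, -0.26 for Rad18, -0.14 for Rpa1, -0.21 for Gtf2h1 and -0.14 for Pms1. With the sign of replicate 1 turned the values were 0.14 for Ogg1, 0.20 for Ercc4, 0.23 for Ercc6, -0.041 for Msh6, -0.24 for Msh3, 0.017 for Fancg, -0.31 for Fancb, -0.071 for Rad18, -0.028 for Parg, -0.088 for Smug1, -0.16 for Rpa1, -0.048 for Gtf2h1 and 0.049 for Sem1. The mean over probes gave 0.013 for Ogg1 and -0.13 for Rad23b. Each ratio already pairs the pools of an array. No paired analysis was possible beyond that because each array holds 1 pool of each group. No block for slide or scan could be fitted, as all arrays share 1 slide and 1 scan. Dim members carry less change than their transcripts may have, since the offset draws ratios near background towards 0.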
